A study of Mus musculus with 221 samples.

Results

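The cytosolic ribosomal protein genes were examined across 9 clusters of hemogenic endothelium and early blood cells of the mouse embryo. Members were all genes with a symbol that starts with Rpl or Rps and a digit, plus Rplp0, Rplp1, Rplp2 and Rpsa, provided that the annotation gave at least 1 protein_coding transcript. The S6 kinase genes, Rps19bp1 and all symbols ending in a pseudogene suffix were left out. This gave 89 members of 78001 genes in the table, 35 of the small and 54 of the large subunit. The rule rests on symbols and annotation.

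Ribosomal proteins assemble with the ribosomal RNAs into the small subunit, which reads the messenger RNA, and the large subunit, which forms the peptide bond. Their messenger RNAs are short, abundant and largely made together, and in proliferating cells they are translated in step with growth signals. Most of these genes have left many processed pseudogenes in the mouse genome, which are intronless copies that arose from reverse transcription of the spliced messenger RNA. Mutations in several of them cause Diamond-Blackfan anemia, in which red cell precursors fail.

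Hemogenic endothelium (HE) is the endothelium that gives rise to blood, and the study followed it in the aorta-gonad-mesonephros region (AGM) of the embryo and in 2 lineages of the yolk sac (YS). HE-AGM comprised the clusters AGM_3 (early) and AGM_4 (late), and AGM_5 was the following cluster, labelled HE-Hb. The YS lineages were HE-YSA, with YS_m1 (early) and YS_m2 (late), and HE-YSP, with YS_b2 (early) and YS_b3 (late). YS_p1 and YS_p2 were early YS progenitors with a skew to lymphomyeloid and to erythromyeloid fates. The embryos came from reporter mice for the Runx1b isoform (RFP) and Gfi1 (GFP). AGM cells were sorted as RUNX1-positive, KIT-negative, CDH5-positive cells and YS HE as RUNX1-positive, KIT-positive, CD31-positive cells, in both cases without CD41 and CD45. The labels placed YS cells at E9.0, E9.5 or E10.5. They gave no stage for 1 YS cell and for nearly all AGM cells.

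Full-length cDNA of 221 single cells was read on a nanopore sequencer in 3 runs, and every cluster was present in every run. After a limit on library size 208 cells were kept, 17 to 29 per cluster, with 18131 to 125339 estimated counts per cell. Depth differed by tissue, and the median cell of HE-AGM held 59311 counts where that of HE-YSA held 34484 and that of HE-YSP 33297. Summed counts per cluster ran from 656575 to 1938830. AGM and YS cDNA came from different library projects, apart from 1 YS cell that shared a project with a few AGM cells, so that tissue, project, sort gate and depth cannot be told apart. The cDNA of 3 cells labelled YS had library names of another project or of the AGM. CPM stands for counts scaled to the same library total. The summed CPM of 8 endothelial markers was lower in the late than in the early cluster of each lineage, from 2716 to 1397 in the AGM, from 2199 to 1265 along HE-YSA and from 2482 to 1288 along HE-YSP, while that of 7 blood markers was higher. All 8 endothelial markers were detected in each HE cluster and Ptprc was at 0 in the 4 YS HE clusters. Erythroid, mesenchymal and yolk-sac endodermal lists summed to at most 303 CPM in any cluster. Because no embryo is named, each population counts as 1 sample and no p-value was computed, and intervals cover counting error only.

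Reads of these genes are shared with their pseudogenes, and the sequences show how close the copies are. For 5 members on which the results turn, the pseudogene with most counts is shown beside the gene over the stretch of 60 coding bases where the pair differs most, with the differing bases in capitals (sequences of GENCODE release M21, build GRCm38).
Rps4x: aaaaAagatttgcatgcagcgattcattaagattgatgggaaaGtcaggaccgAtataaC
Gm9616: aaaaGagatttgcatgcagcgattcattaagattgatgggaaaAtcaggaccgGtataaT
Rpl39: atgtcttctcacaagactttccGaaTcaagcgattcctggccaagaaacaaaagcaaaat
Gm14541: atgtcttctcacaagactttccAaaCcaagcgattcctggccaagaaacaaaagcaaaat
Rplp1: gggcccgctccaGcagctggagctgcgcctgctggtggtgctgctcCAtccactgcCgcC
Gm11942: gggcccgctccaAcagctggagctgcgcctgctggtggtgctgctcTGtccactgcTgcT
Rplp0: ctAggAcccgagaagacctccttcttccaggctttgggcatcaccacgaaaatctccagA
Gm8730: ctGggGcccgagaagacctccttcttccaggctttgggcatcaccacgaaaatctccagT
Rps16: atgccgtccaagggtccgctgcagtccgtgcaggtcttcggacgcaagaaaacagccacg
The fifth pair has no capitals because Rps16 and Rps16-ps2 were identical over all 441 bases of the pseudogene, so the start of the coding stretch is printed once.

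Rps4x, a small subunit protein encoded on the X chromosome (chrX:102184941-102189394, minus strand), matched Gm9616 (chr13:3298887-3299667, plus strand) at 98.1% of 788 aligned bases. Rpl39, a very short protein of the large subunit's exit tunnel (chrX:37082520-37085402, minus strand), matched Gm14541 (chrX:36839137-36839293, minus strand) at 96.8% of 157 bases. Rplp1 of the acidic stalk, which recruits elongation factors (chr9:61913284-61914542, minus strand), matched Gm11942 (chr4:32964888-32965232, plus strand) at 97.4% of 345 bases, and Rplp0, the base of the stalk (chr5:115559467-115563727, plus strand), matched Gm8730 (chr8:102864845-102865798, minus strand) at 98.7% of 954 bases. Rps16, another small subunit protein (chr7:28350652-28353155, plus strand), has its identical copy at chr5:129128077-129128517 on the minus strand. Over the whole set, 1567 processed pseudogenes matched 85 of the members, with a median of 13 and at most 135 pseudogenes for a member.

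Of the 89 members, 83 had at least 100 counts in the cells used. Rpl3l, Rpl10l and Rpl39l, paralogs that are best known from muscle or testis, had no count in any cell, and Rps4l, Rps23rg1 and Rpl17 had 4.08, 15 and 19 counts in all. The members held 6.27 to 9.19% of all counts of a cluster. In AGM_3 they took 7.20% of the counts, with 4.86, 7.01 and 10.1% in the lowest, median and highest cell. AGM_4 had 8.29% (5.48, 8.54 and 11.3%) and AGM_5 had 9.19% (7.22, 9.06 and 10.7%). The share thus stood higher at each step along the AGM series, in each of 3 runs, although the cells of neighbouring clusters overlapped.

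In the YS the share was 6.41% in YS_m1 (4.98, 6.09 and 9.002%) and 6.90% in YS_m2 (5.53, 6.90 and 11.6%), and the late cluster was the higher one in 2 of 3 runs. It was 6.27% in YS_b2 (4.90, 6.18 and 8.54%) and 6.88% in YS_b3 (5.60, 6.86 and 8.46%), higher in 3 of 3 runs. The progenitors stood at 6.81% in YS_p1 (5.58, 7.16 and 8.12%) and 6.43% in YS_p2 (5.84, 6.61 and 7.49%). YS_p2 lay under YS_b3 in 3 of 3 runs, whereas YS_p1 lay under YS_m2 in 1 of 3 runs and its median cell was above that of YS_m2. The large subunit genes made up the larger part everywhere, with 3.87 to 5.89% of counts against 2.40 to 3.29% for the small subunit.

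**Figure D1:**
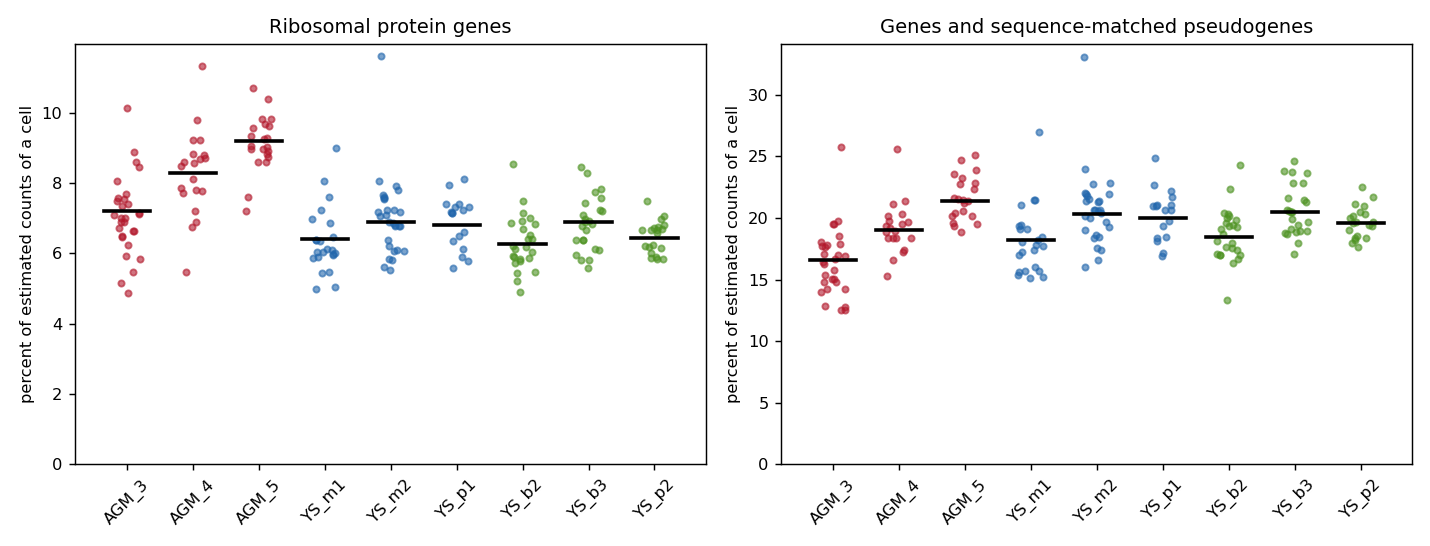
Percent of a cell's estimated counts in the 89 ribosomal protein genes (left) and in these genes plus their sequence-matched processed pseudogenes (right). Each point is a cell, the black bar is the share of the summed counts of the cluster, red is AGM, blue is the YSA lineage and green the YSP lineage. The AGM bars climb from 7.20 to 9.19% on the left, and on the right AGM_3 is the lowest cluster at 16.6%.

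The pseudogenes carried more counts than the genes. They held 9.38 to 12.2% of the counts in AGM clusters and 11.8 to 13.6% in YS clusters, and genes and pseudogenes together held 16.6, 18.98 and 21.4% in AGM_3, AGM_4 and AGM_5. The same sum was 18.2% in YS_m1, 20.3% in YS_m2 and 19.997% in YS_p1, and 18.5% in YS_b2, 20.5% in YS_b3 and 19.6% in YS_p2. So the late HE cluster held the larger sum in all 3 lineages and in each of 3 runs, while the order of AGM and YS depended on whether pseudogenes were counted: HE-AGM had 7.66% in genes alone against 6.69 and 6.57% in HE-YSA and HE-YSP, but 17.6% against 19.4 and 19.5% with pseudogenes. Processed pseudogenes that match no member also took fewer counts in HE-AGM, 6.65% against 12.1 and 12.3%. Library project cannot be told apart from tissue in these values.

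The first question of the design is how HE differs between the AGM and the YS. A member was called when its CPM of summed counts differed at least 2-fold, with the same direction in each of 3 runs and at least 100 counts in both populations together. Against HE-YSA, 82 members could be compared, and 24 were called higher and 6 lower in HE-AGM, where 23.2% of all 6469 genes compared were called higher and 10.9% lower. Against HE-YSP, 24 of 82 were called higher and 5 lower, beside 25.4 and 12.6% of 6339 genes. The median log2 ratio of the members was 0.43 over HE-YSA (0.40, 0.36 and 0.48 in runs 1 to 3) and 0.42 over HE-YSP (0.34, 0.52 and 0.37), with medians of 0.16 and 0.19 over all genes. Both comparisons use the same HE-AGM cells.

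The differences of some genes were large. Rps4x had 930 CPM in HE-AGM (95% Poisson interval 898 to 964; lowest, median and highest cell 78.9, 877 and 1936), 66.1 CPM in the HE-YSA cells (55.1 to 78.7; cells 0.00725, 10.8 and 507) and 70.2 in HE-YSP (57.9 to 83.9; cells 0.219, 11.8 and 770). These log2 ratios were 3.81 and 3.72. The median AGM cell stood above every YS cell, although the ranges overlapped. Rpl39 had 453 CPM in HE-AGM (lowest, median and highest cell 76.5, 341 and 1117), against 20.03 for HE-YSA (0, 1.27 and 158) and 25.8 for HE-YSP (0, 0 and 210), with log2 ratios of 4.48 and 4.12. Its count was thus 0 in at least the median HE-YSP cell and in no AGM HE cell.

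Counted without pseudogenes, the stalk genes did not move as a group. Rplp1 had 234 CPM in HE-AGM against 12.9 and 12.2 in the YS (log2 ratios 4.16 and 4.23), and Rplp2, its partner, had log2 ratios of 1.09 and 1.475. Rplp0, which holds both on the ribosome, went the other way, with 225 CPM in HE-AGM (lowest, median and highest cell 42.9, 217 and 818) against 603 for HE-YSA (93.4, 613 and 1239) and 709 for HE-YSP (150, 708 and 1637), or log2 ratios of -1.42 and -1.66. The cells of the 3 populations overlapped. With matched pseudogenes, Rplp0, Rplp1 and Rplp2 each stood lower in HE-AGM. Rplp0 then had 2452 CPM against 2890 and 3391, Rplp1 2116 against 3112 and 3621, and Rplp2 1416 against 1593 and 1440.

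The other members with the highest ratios were small subunit genes and Rpl13. Rps16 had log2 ratios of 4.41 over HE-YSA and 2.70 over HE-YSP, Rps28 had 3.62 and 3.73, and Rps20 had 3.60 and 3.16. Rpl13 stood at 3.27 over HE-YSP. At the lower end, Rpl10, an X-linked protein next to the peptidyl transferase centre, had 242 CPM in HE-AGM against 738 and 793 (log2 ratios -1.61 and -1.71). Rpl15 followed with -1.27 and -1.26, Rpl4 with -1.22 and -1.12, and Rps14 with -1.03 and -0.93, the latter short of 2-fold. Rpl27rt, a retrocopy of Rpl27, had the lowest value over HE-YSA, -1.82, from 12.8 CPM against 45.7.

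When the counts of matched pseudogenes were added to each gene, most members called higher came within 2-fold. The median turned to -0.17 over HE-YSA and -0.15 over HE-YSP, and 2 and 3 members were called higher and 2 and 2 lower. Of the 24 members called higher over HE-YSA, 22 were within 2-fold with their pseudogenes and 14 of them had a log2 ratio below 0, and over HE-YSP it was 21 and 13 of 24. Rps4x changed from 3.81 to -0.33, Rplp1 from 4.16 to -0.56, Rps16 from 4.41 to -0.25 and Rps20 from 3.60 to -0.32. Rpl39 kept ratios of 0.59 over HE-YSA and 0.76 over HE-YSP. Of the members at the lower end, Rpl10 had -0.81 and -0.98 with its pseudogenes, Rpl4 -0.73 and -0.80, Rpl15 -0.69 and -0.70, Rps14 -0.64 and -0.54, and Rplp0 -0.24 and -0.47, each below 0 in each run. The members that stayed called higher over HE-YSA were Rps28, at 1.02, and Rpl21, at 1.44. Over HE-YSP these were Rps28, Rpl21 and Rpl38, at 1.23, 1.23 and 1.29. Rpl27rt was the only member called lower alone and with pseudogenes in each comparison, and Rpl29 was called lower only with its pseudogenes, at -1.01 and -1.04.

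**Figure D2:**
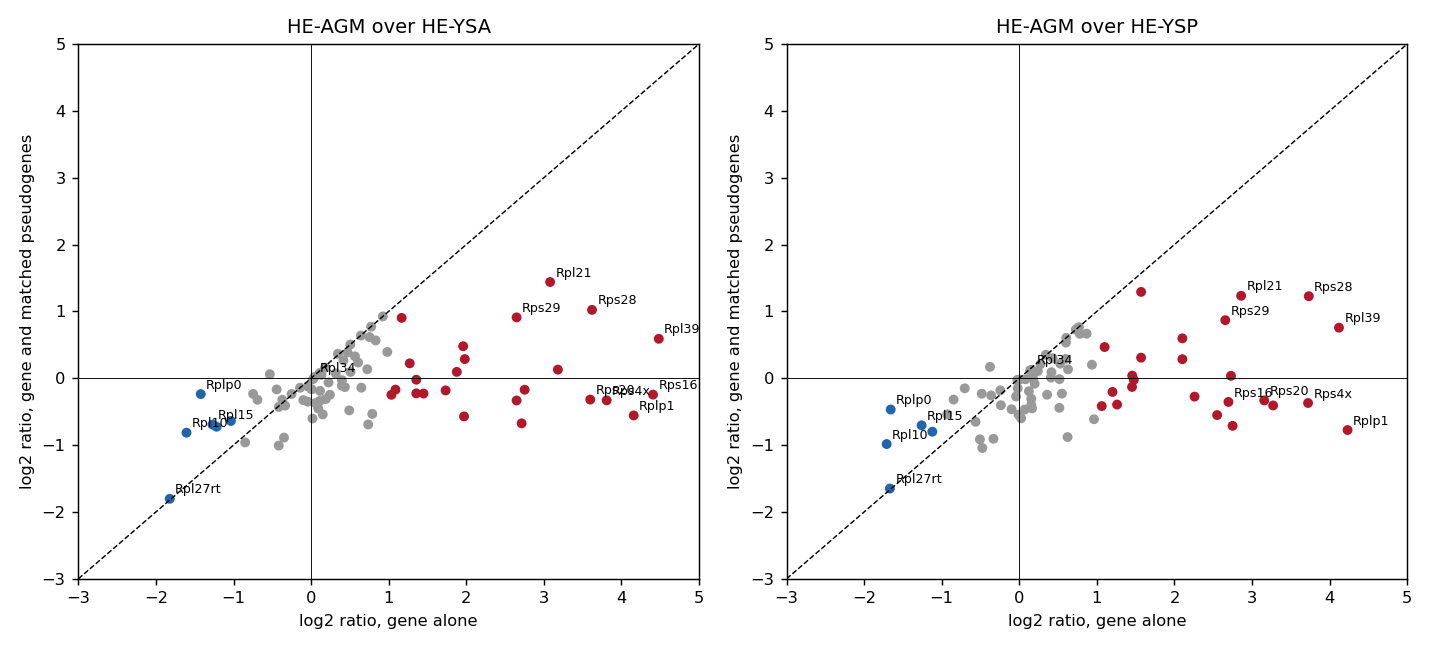
log2 ratio of HE-AGM over HE-YSA (left) and over HE-YSP (right) for each compared ribosomal protein gene, alone (x axis) and with its sequence-matched processed pseudogenes (y axis). Red points were called higher and blue points lower for the gene alone, grey points were not called, and the dashed line marks equal values. Points at the far right, such as Rps4x and Rplp1, lie near or under 0 on the y axis.

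The division of counts between a gene and its pseudogenes differed between the tissues. Rps4x held 52.6% of the counts of the gene and its pseudogenes in HE-AGM (lowest, median and highest cell 8.83, 51.1 and 83.2%), 2.97% in HE-YSA (median cell 0.452%, highest 18.1%) and 3.07% in HE-YSP (median cell 0.527%, highest 33.4%). The sum of gene and pseudogenes was 1770, 2226 and 2288 CPM in these populations. Gm9616 alone had 641 CPM in HE-AGM and 1336 and 1434 in the YS. For Rpl39 the share of the gene was 23.9% against 1.59 and 2.30%, for Rplp1 11.1% against 0.413 and 0.336%, and for Rps16 5.92% against 0.229 and 0.708%. For Rplp0 it was lower in HE-AGM, at 9.17% against 20.9 and 20.9%, while Rpl34, with few pseudogene counts, kept 96.8, 95.2 and 94.7% and showed ratios of 0.04 and 0.16.

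**Figure D3:**
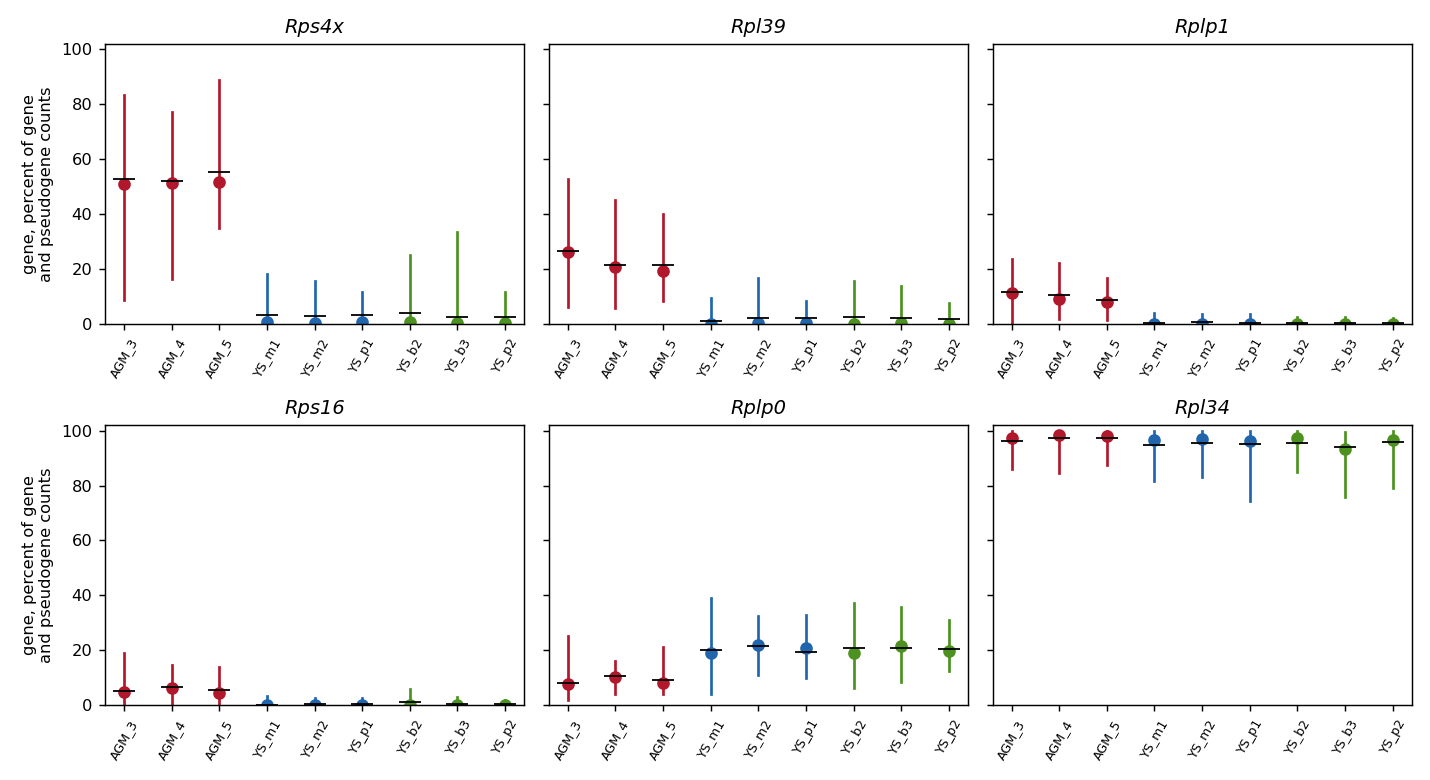
Counts of 6 genes as a percent of the counts of the gene and its sequence-matched pseudogenes in the 9 clusters. The dot is the median cell, the coloured line runs from the lowest to the highest cell and the black dash is the pooled value. Rps4x, Rpl39, Rplp1 and Rps16 are higher in the 3 AGM clusters, Rplp0 is lower there, and the pooled value of Rpl34 stays above 90% throughout.

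Over all members with at least 100 counts with their pseudogenes, the median gene of HE-AGM held 41.5% of that sum, where it held 24.0% for HE-YSA and 23.6% for HE-YSP. It held under 1% for 1 member in HE-AGM and for 9 in each YS population. The cluster values were 40.0 to 43.9% in the AGM and 22.7 to 24.5% in the YS.

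The 2 YS lineages were close to each other. Among 72 members compared between HE-YSP and HE-YSA, 0 were called higher and 0 lower, where 3.06 and 3.57% of 4481 genes were called, and the median log2 ratio was -0.01. In the same direction in each run, 7 were higher and 6 lower, beside 18.2 and 16.5% of all genes. Among the highest were Rplp0 at 0.24 and Rpl7a at 0.19, and the lowest were Rplp2 at -0.39, Rps27a, the ubiquitin fusion gene, at -0.34, and Rps24 at -0.19.

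Nanopore reads also assign counts to isoforms, and here the tissues differed again. An isoform was called where its percent of the gene's counts differed by more than 10 percentage points with the same sign in each run, among genes with at least 200 counts in each population. Between HE-AGM and HE-YSA 27 of 60 members had a called isoform, beside 45.9% of all 1093 genes compared, and between HE-AGM and HE-YSP 28 of 59, beside 42.2% of 961. The YS lineages set against each other gave 0 of 59, where 5.82% of 945 genes were called. The number of members called was thus near the background.

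The last 30 bases of paired isoforms show the kind of difference. The poly(A) signal that directs 3' end cleavage is in capitals. Rps15a and Rpl18 are among the largest differences, and Rpl3 was chosen after its values were seen. The isoform printed first of each pair had the larger share in HE-AGM than in the YS.
Rps15a-201: agcataAATAAAaagcctttgtggactgtg
Rps15a-202: tttggcttcattgtgctgacaacctcggct
Rpl18-201: ttAATAAAaaaaacattggatgatgatggt
Rpl18-211: gtcgcatcctcaaggctgggggtaagatcc
Rpl3-201: gtctcaccAATAAAatatttctactcacac
Rpl3-205: agcaggttcctgtgaaccaggtgtttgggc
The end of the second isoform lies within the first in each pair, 252 bases before its end for Rpl18 and 634 for Rpl3.

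Rps15a (chr7:118104372-118116188, minus strand) encodes a small subunit protein and had the largest difference. Rps15a-201 held 84.2, 88.9 and 89.6% of the counts in AGM_3, AGM_4 and AGM_5 and 21.7 to 38.6% in the 6 YS clusters, while Rps15a-202 held 8.48 to 13.4 and 57.3 to 73.4%. The AGM and YS clusters did not overlap. The difference of Rps15a-201 was 52.1 percentage points over HE-YSA (36.8, 60.9 and 58.2 in runs 1 to 3) and 59.9 over HE-YSP (56.8, 56.0 and 64.3).

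Rpl18-211 held 31.1% of the counts of this large subunit gene in HE-AGM and 82.1 and 85.1% in the YS populations. Rpl13a-203 held 38.0% against 76.0 and 80.8%, and Rps2-207 8.29% against 46.1 and 44.8%. For Rpl3, whose protein lies near the peptidyl transferase centre, Rpl3-201 held 87.8% in HE-AGM against 63.9 and 63.0%, and Rpl3-205, a form subject to nonsense-mediated decay, 5.92% against 28.3 and 28.9%.

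**Figure D4:**
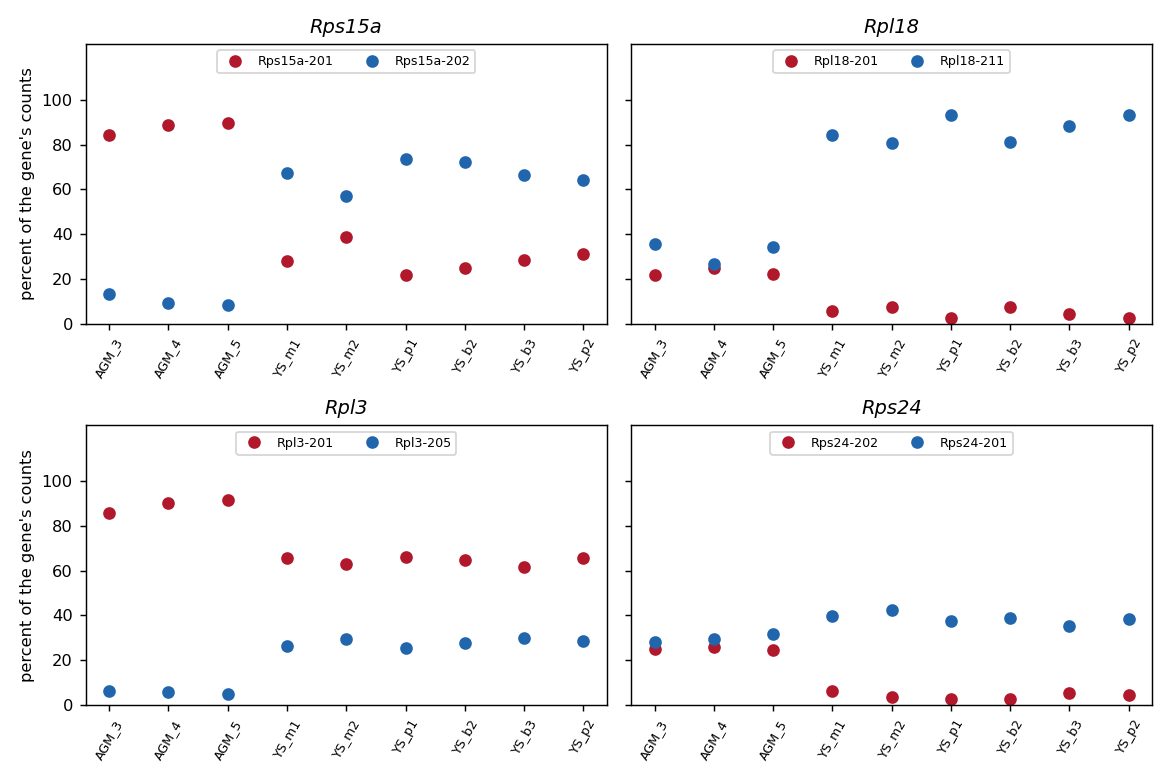
Percent of a gene's summed counts on 2 of its isoforms in the 9 clusters, for Rps15a, Rpl18, Rpl3 and Rps24. Red marks the isoform with the larger share in HE-AGM than in the YS and blue the other. Counts assigned to pseudogenes are left out. For Rps15a the red points are at 84.2% or above in the 3 AGM clusters and at 38.6% or below in the YS.

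Of 25 member isoforms called higher in HE-AGM than in HE-YSA, 22 (88%) held the sequence AATAAA in their last 50 bases, against 5 of 26 (19.2%) called lower. Over HE-YSP these were 25 of 28 (89.3%) and 5 of 24 (20.8%). Isoforms of a gene divide its counts, so a rise of some entails a fall of others. Many genes, such as Rpl18 and Rps2, gave isoforms to both counts, which are therefore not independent. Isoforms of other genes showed the same order, with 66.6 and 67.0% of those called higher and 14.5 and 12.6% of those called lower. By counts, 64.9% of the member counts of HE-AGM lay on isoforms with the signal (54.9, 64.1 and 70.9% in the lowest, median and highest cell). For HE-YSA it was 52.5% (42.3, 52.5 and 58.4%), and for HE-YSP 52.4% (47.2, 51.5 and 58.8%). The lowest AGM cells overlapped the highest YS cells. For other protein_coding transcripts the shares were 58.2, 50.6 and 51.4%. AGM_5 stood with the AGM at 64.9%, and YS_p1 and YS_p2 with the YS at 53.2 and 51.9%, so the values fell by tissue, which cannot be told apart from library project. Among 59 members with at least 200 counts in each population, the share was higher in HE-AGM for 42 and lower for 8 against HE-YSA, and for 40 and 10 against HE-YSP.

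**Figure D5:**
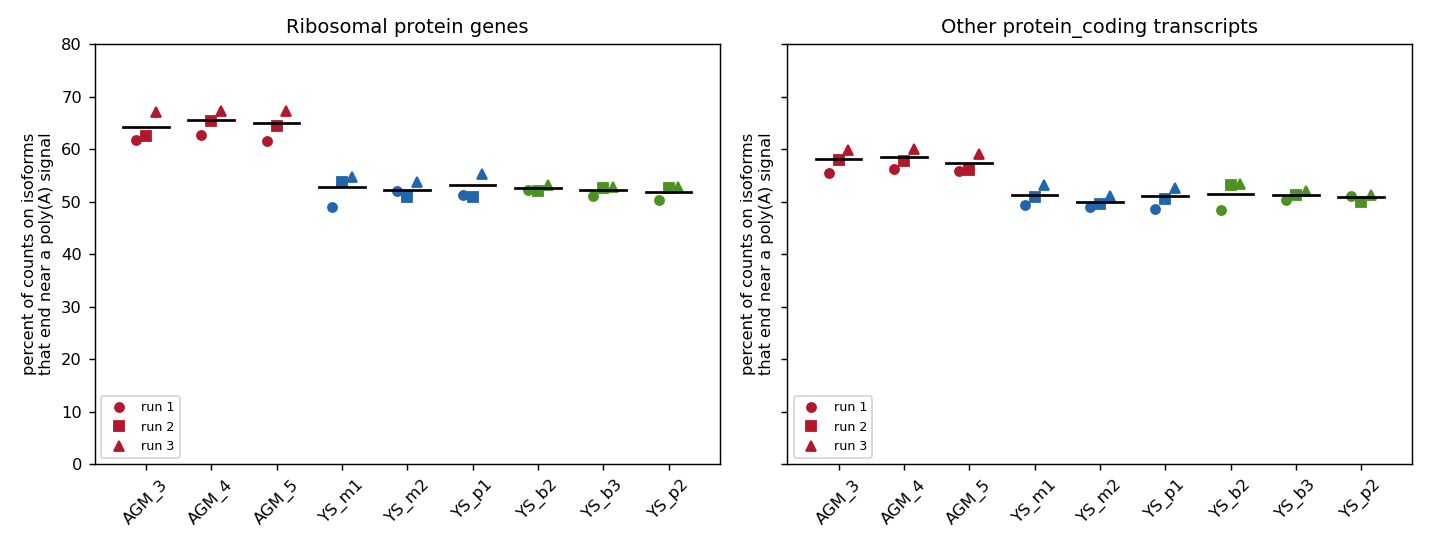
Percent of summed counts on isoforms with AATAAA in their last 50 bases, for ribosomal protein genes (left) and other protein_coding transcripts (right). Circles, squares and triangles are runs 1 to 3 and the black bar is the pooled value of the cluster. The AGM bars lie at 64.3 to 65.5% on the left and the YS bars at 51.9 to 53.2%.

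The biotypes of the member isoforms were also counted. For HE-AGM, HE-YSA and HE-YSP in this order, protein_coding isoforms held 73.2, 72.9 and 72.3% of member counts, retained-intron isoforms 11.7, 10.4 and 10.6%, isoforms subject to nonsense-mediated decay 3.74, 3.31 and 3.39%, and isoforms of the class protein_coding_CDS_not_defined 11.4, 13.4 and 13.7%. The runs of HE-AGM lay below those of both YS populations for the last class and above them for retained-intron isoforms. For protein_coding isoforms they overlapped those of HE-YSA, and for nonsense-mediated decay isoforms those of both YS populations. Single genes differed more. For Rpl4, a large subunit protein that lines the exit tunnel, the retained-intron form Rpl4-203 held 84.1% of the counts in HE-AGM and 95.7 and 93.6% in the YS, and the main coding form Rpl4-201 held 3.87% in HE-AGM. Its pseudogene Gm5835 had 2242 CPM in HE-AGM, above the 219 CPM of the gene.

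The second question is what happens as HE proceeds from early to late and on to progenitors. The 3 early to late comparisons called 0 members at 2-fold, where 3, 1.99 and 4.39% of all genes were called higher and 5.77, 3.82 and 5.01% lower in the AGM, YSA and YSP lineages. Among smaller shifts, more members were higher than lower in the late cluster of each lineage. In YS_b3 over YS_b2, though, the number higher in each run was near the share of all genes. In AGM_4 over AGM_3, 37 of 81 members were higher in each run and 0 lower, beside 18.6 and 16.5% of all genes, and the median log2 ratio was 0.23 against 0.03 over all genes. In YS_m2 over YS_m1 17 of 67 were higher and 3 lower (16.7 and 14% of all genes) with a median of 0.14 (all genes 0.04), and in YS_b3 over YS_b2 19 of 67 were higher and 1 lower (26.8 and 15.9%), with a median of 0.14 (0.10). With pseudogenes the counts were 50 and 0 of 81, 28 and 0 of 67, and 34 and 1 of 67, and the medians 0.20, 0.18 and 0.19. No share over all genes was computed with pseudogenes.

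The highest members in AGM_4 over AGM_3 were Rps20 at 0.69, Rps28 at 0.64 and Rps16 at 0.63. In HE-AGM, Rps20, Rps28 and Rps16 held 5.83, 7.29 and 5.92% of the counts of the gene and its pseudogenes. In YS_m2 over YS_m1 they were Rpl30 at 0.62, Rpl29 at 0.49 and Rpl4 at 0.40, with Rps3a1 at -0.39, Rpl22 at -0.34 and Rpl35a at -0.33 as the only members lower in each run. In YS_b3 over YS_b2 they were Rpl7a at 0.61, Rpl36al at 0.57 and Rps12 at 0.53, and Rpl29, at -0.36, was the member lower in each run. With their pseudogenes, Rpl30 had 0.09, Rpl29 0.10, Rps3a1 0.18, Rpl22 -0.04 and Rpl35a 0.11 in YS_m2 over YS_m1, and Rpl29 had -0.14 in YS_b3 over YS_b2.

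From late HE to the next cluster the AGM and YS differed in their counts. In AGM_5 over AGM_4, 33 of 81 members were higher in each run and 2 lower (16.5 and 17.7% of all genes), with a median log2 ratio of 0.12 against -0.01 over all genes. In YS_p1 over YS_m2 it was 7 higher and 10 lower of 67 (22.5 and 14.3%), with a median of 0.00 against 0.09, and in YS_p2 over YS_b3 4 higher and 13 lower of 65 (20.9 and 14.8%), with a median of -0.09 against 0.06. At 2-fold 0 members were called in each, beside 2.85, 4.33 and 1.92% of genes called higher and 5.75, 4.79 and 3.65% lower. With pseudogenes the members higher and lower in each run were 51 and 1 of 81, 6 and 7 of 67, and 5 and 17 of 65. The medians were then 0.18, -0.02 and -0.07. The difference between these lineages was not tested, and each late HE cluster serves in both steps of its lineage. Rps25 (0.79), Rpl21 (0.73) and Rpl27a (0.56) led in AGM_5, and Rps28 (-0.58) and Rpl36a (-0.12) were the lowest. In HE-AGM, Rps25, Rpl21 and Rpl27a held 3.99, 14.6 and 5.02% of the counts of the gene and its pseudogenes. Rps15 (0.54) and Rps23 (0.45) led in YS_p1, where Rps7 (-0.47), Rpl29 (-0.39) and Rps26 (-0.32) were lowest. In YS_p2, Rpl10 (0.23), Rpl14 (0.23) and Rpl31 (0.20) were highest, and Rpl22 (-0.42) and its paralog Rpl22l1 (-0.42) were among the lowest.

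Paralogs can replace their parent protein in the ribosome. Of 9 paralogs, 4 could be compared between HE-AGM and HE-YSA, and Rps27l and Rps27rt were called higher, where 23.2% of all genes were. The list holds the retrocopy Rps27rt but neither Rpl27rt, called lower in both comparisons, nor Rpl35rt, which had log2 ratios of 0.83 and 0.87 and was not called. Rps27l, a target of p53, had 145 CPM in HE-AGM against 39.3 and 33.6 in the YS (log2 ratios 1.88 and 2.10), but 0.09 and 0.28 with its pseudogenes. Rps27rt, a retrocopy to which 13 pseudogenes were matched while Rps27 received 1, had 99.2 CPM against 25.3 and 22.9. With these pseudogenes Rps27rt had 2170 CPM against 1557 and 1435 and was not called. Rps27 itself had 237 CPM against 124.9 and 141. Rpl22l1, which regulates splicing in opposition to Rpl22, was level at 1002, 985 and 1000 CPM, while Rpl22 had 718 CPM in HE-AGM against 435 and 465. With matched pseudogenes Rpl22 had 1059 CPM against 965 and 965. Rpl36al had 117, 103 and 96.6 CPM, and Rpl7l1 13.5, 25.7 and 24.5.

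All 19 genes of the Diamond-Blackfan anemia list could be compared. Against each YS population 3 were called higher, Rps28 and Rps29 among them, and Rpl15 was called lower, where 23.2 and 25.4% of all genes were called higher and 10.9 and 12.6% lower. The medians were 0.19 and 0.20 over the list, beside 0.16 and 0.19 over all genes. Rps29 had 420 CPM in HE-AGM against 66.8 and 66.5 (log2 ratios 2.65 and 2.65, or 0.91 and 0.87 with pseudogenes). Rps19, the gene most often mutated in the disease, was not called, with 1847 CPM against 2390 and 2376. Rpl5 and Rpl11, which bind MDM2 when ribosome assembly is disturbed, had log2 ratios of 0.11 and 0.11 over HE-YSA and were not called either. Both were lower in HE-AGM once pseudogenes were added, Rpl5 with 1842 CPM against 2333 in HE-YSA and Rpl11 with 2418 against 2757. With pseudogenes the medians of the list were -0.12 and -0.01.

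The ribosomal proteins Fau and Rack1 fall outside the naming rule. Fau, which encodes Rps30 fused to a ubiquitin-like protein, had 405 CPM in HE-AGM against 722 and 680 in the YS (log2 ratios -0.84 and -0.75) and was lower in each run. Rack1 had 1661 against 1366 and 1440. Neither was called.

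Assembly factors build the subunits in the nucleolus and cytoplasm. Of 29 factors, 25 could be compared in each AGM to YS comparison. Over HE-YSA 4 were called higher and 1 lower, over HE-YSP 5 and 1, beside 23.2 and 10.9% and 25.4 and 12.6% of all genes. Mdn1, the AAA ATPase that strips factors from the pre-large subunit, had 36.3 CPM in HE-AGM against 6.30 and 4.79 and was called higher in both. In YS_b3 over YS_b2 4 of 11 factors were called higher and 0 lower, with a median log2 ratio of 0.87 against 0.10 over all genes: Bop1 (1.39), Ebna1bp2 (1.23), Mrto4 (1.18) and Gnl3 (1.03). There 4.39% of all genes were called higher and 5.01% lower. In YS_p1 over YS_m2 2 of 14 were called higher, Rrs1 (1.38) and Bop1 (1.15), with a median of 0.64 against 0.09, where 4.33% of all genes were called higher. For the cytosolic ribosomal protein genes the medians there were 0.14 and 0.00. The other steps had 0 factors called higher: of 23 in AGM_4 over AGM_3, 16 in YS_m2 over YS_m1, 22 in AGM_5 over AGM_4 and 15 in YS_p2 over YS_b3. Among all genes 3, 1.99, 2.85 and 1.92% were called higher in these steps. Lower calls were limited to 1 factor, in AGM_5 over AGM_4, where 5.75% of all genes were called lower. The medians were 0.20, 0.01, 0.26 and 0.32, against 0.03, 0.04, -0.01 and 0.06 over all genes.

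The mitochondrial ribosomal proteins serve the separate ribosome of that organelle and are encoded by 78 genes here. They held 0.633, 0.700 and 0.739% of counts in AGM_3, AGM_4 and AGM_5, 0.829, 0.836 and 1.07% in YS_m1, YS_m2 and YS_p1, and 0.797, 0.946 and 1.07% in YS_b2, YS_b3 and YS_p2. Their median log2 ratio was -0.26 over HE-YSA and -0.24 over HE-YSP. The cytosolic members had 0.43 and 0.42 when counted alone, but -0.17 and -0.15 with matched pseudogenes. No pseudogenes were matched to the mitochondrial genes, so the signs differed only for cytosolic genes counted alone. In YS_p1 over YS_m2 24 of 51 were higher in each run and 0 lower (22.5 and 14.3% of all genes), with a median of 0.42 against 0.09 over all genes.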

How the data were processed

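Smart-seq2 cDNA of 221 sorted cells was sequenced with nanopore chemistry in 3 runs. The authors trimmed and mapped the reads with Minimap2 (2.26) to GENCODE transcripts (release 37), where a read could keep up to 10 alignments, and deposited expected counts per transcript from NanoCount, which divides a read among its alignments. The deposited TPM table was not used. All 221 columns were mapped to cells by their labels.

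Here the estimated counts of 278369 transcripts were used as they stand. Cells below 17595 counts, 1 scaled median absolute deviation under the median of 38780, were left out (13 cells), as the study did for library size. Transcripts were summed to genes and cells to populations. CPM scales each sum to the same total, and 0.5 was added to each sum before a log2 ratio. Nanopore counts are not scaled to length, so levels were not ranked between genes.

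Transcript sequences were taken from GENCODE M21 (GRCm38) for the 509 of 510 member transcripts with the same identifier and length there, which carry 100% of member counts to 3 digits, and for 10174 of 10257 processed pseudogene transcripts. Pseudogenes were given to the member with the best blastn (2.17.0) hit of at least 85% identity over at least 50% of the pseudogene. Named are the 6 highest and 6 lowest members with the same sign in each run in the AGM to YS comparisons, 3 and 3 in the others, the largest isoform differences, the paralogs with their parents and the Diamond-Blackfan anemia genes. The gene family and the lists were chosen with earlier results of these data known, although the membership rule uses symbols and annotation only. No test was run, because no embryo is named and each population is 1 sample. Some members are not reported here by name. The call rules were tested on simulated data. Python 3.11.15, numpy 2.4.6, pandas 2.3.3, scipy 1.17.1, matplotlib 3.10.9, R 4.3.3 and DESeq2 (1.42.0, size factors of the rounded sums only) were used. The alternatives were other limits and weights of cells, other scalings, isoform and pseudogene rules, depth, runs, stage and filters.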

Additional observations from a re-analysis of the deposited data

Results flagged for a closer look

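Several members had a ratio of one sign in all 3 runs in one lineage and of the other sign in all 3 runs in another. These differences between lineages were not tested and all are below 2-fold. From early to late HE, Rpl22 had 0.49 in AGM_4 over AGM_3 and -0.34 in YS_m2 over YS_m1, and Rpl35a had 0.33 and -0.33. Rpl29 had 0.49 in YS_m2 over YS_m1 and -0.36 in YS_b3 over YS_b2. With pseudogenes none of these 3 pairs kept opposite signs in each run: Rpl22 had 0.24 and -0.04, Rpl35a 0.33 and 0.11, and Rpl29 0.10 and -0.14.

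From late HE to the next cluster, most opposite pairs were higher in AGM_5 over AGM_4 and lower in a YS progenitor. Rpl22l1 had 0.50 in AGM_5 over AGM_4 and -0.42 in YS_p2 over YS_b3, and Rps2 had 0.20 and -0.29. Against YS_p1 over YS_m2, Rpl4 had 0.32 and -0.24, Rps26 had 0.29 and -0.32, Rpl29 had 0.25 and -0.39, Rpl37 had 0.20 and -0.31, and Rps24 had 0.13 and -0.17. Rps14 had 0.27 in the AGM, -0.14 in YS_p1 and -0.15 in YS_p2. Rpsa, the laminin-binding small subunit protein, had 0.14 in the AGM, -0.25 in YS_p1 and 0.14 in YS_p2.

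With pseudogenes, opposite signs in each run remained for Rpl22l1 (0.53 in AGM_5 and -0.40 in YS_p2), Rps14 (0.18 in AGM_5, -0.17 in YS_p1 and -0.16 in YS_p2) and Rpsa between AGM_5 (0.26) and YS_p1 (-0.36), while Rpsa in YS_p2 had 0.08. They were lost for the others. Rps2 had 0.11 in AGM_5 and -0.01 in YS_p2. Against YS_p1, Rpl4 had 0.20 and -0.06, Rps26 0.17 and -0.11, Rpl29 0.16 and 0.08, Rpl37 0.19 and -0.07, and Rps24 0.21 and -0.09.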

How the results depend on the processing

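Under the alternatives, 114 of 140 median log2 ratios stayed within the spread of the runs, and 127 of 149 counts of members called higher, 129 of 149 called lower and 28 of 42 isoform counts stayed within 1.5 times the reported count. Of the counts of members higher in each run 71 stayed within that limit and 16 did not, and of those lower in each run 59 and 28. The percent of counts in members stayed within the spread of the runs in 48 cases and moved beyond it in 48, among them all 9 clusters whenever pseudogenes were added, only protein_coding transcripts were kept or the total left out pseudogenes and mitochondrial transcripts. The cause of the changes below was not tested. Adding pseudogenes matched by sequence, an alternative chosen after seeing the data, turned the medians of HE-AGM over HE-YSA and HE-YSP to -0.17 and -0.15, with 2 and 3 members called higher and 2 and 2 lower. It also turned Rplp1 (-0.56 and -0.77), Rps20 (-0.32 and -0.33), Rps4x (-0.33 and -0.37), Rps16 over HE-YSA (-0.25) and Rpl13 over HE-YSP (-0.41). With pseudogenes named after the gene the medians were 0.11 and 0.13, 14 and 14 members were called higher, and Rplp1 (-0.22 and -0.47), Rps16 over HE-YSA (-0.27) and Rpl13 over HE-YSP (-0.84) were turned. With protein_coding transcripts only the medians were 0.54 and 0.53, Rpl4 turned to 5.04 and 3.08, and Rps20 to -3.98 and -0.99. These 4 ratios rest on a few protein_coding counts or none in at least 1 of the populations compared, so they depend on the 0.5 added and are no fold sizes. With CPM outside processed pseudogenes and mitochondrial transcripts the medians were 0.29 and 0.28, and with cells of 30000 to 60000 counts 0.34 and 0.32, from runs 1 and 2 only. With YS cells of E10.5 the median over HE-YSA was 0.49. Runs 2 and 3 alone gave 0.29 and 0.50 over HE-YSA, and run 1 alone 0.32 over HE-YSP. Run 1 alone called 3 members lower over HE-YSA, and over HE-YSP run 2 alone called 2 and a limit of 1.5-fold 8.

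In the other comparisons the counts called at 2-fold, reported as 0, became at most 4. For AGM_4 over AGM_3, 1, 4 and 2 members were called higher in runs 1 to 3 alone, 1 without a filter and 3 at 1.5-fold, and 1 was lower in run 1 and 1 with protein_coding transcripts only. The median in run 2 was 0.43. For YS_m2 over YS_m1, 1 was higher in run 1, in run 2, at E10.5 and at 1.5-fold, and without a filter 2 were higher and 1 lower. For YS_b3 over YS_b2, 1 was higher in run 2 and at 1.5-fold, and without a filter 2 were higher and 1 lower. Its median was 0.036 in cells of 30000 to 60000 counts, 0.040 and 0.26 in runs 1 and 2, and 0.23 at E10.5. For AGM_5 over AGM_4 the median was 0.23 with DESeq2 size factors, 0.20 in cells of 30000 to 60000 counts, and 0.19 and 0.050 in runs 1 and 2. There 1 member was higher with protein_coding transcripts only and in run 1, 2 at 1.5-fold, and 1 was lower in run 2 and without a filter. For YS_p1 over YS_m2 the median was -0.094 with DESeq2 size factors and -0.15 in run 2, with 2 and 1 members lower in runs 1 and 2 and 1 higher in run 3. For YS_p2 over YS_b3, 1, 1 and 2 were lower in runs 1 to 3, 1 at E10.5 and 2 without a filter. For HE-YSP over HE-YSA the median was -0.12 in run 2, 1 member was lower with equal weight of cells and in run 1, and 1 was higher without a filter.

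With at least 1000 counts, 15 of 35 and 15 of 31 members compared had an isoform change, for HE-AGM against HE-YSA and HE-YSP. With a difference over 20 percentage points they numbered 14 of 60 and 14 of 59. They numbered 14 of 42 and 16 of 40 among genes with at least 20% of their counts outside pseudogenes, chosen after seeing the data. Against HE-YSP they were 17 of 46 and 18 of 44 in runs 1 and 2. Between HE-YSP and HE-YSA they were 2 of 47, 2 of 43 and 4 of 51 in runs 1 to 3. There they were also 1 of 56 in cells of 30000 to 60000 counts, 3 of 54 at E10.5 and 1 of 41 with protein_coding transcripts only. No share over all genes was computed for these settings. Leaving out the 3 YS cells with other library names changed none of these medians or counts beyond the limits above. No paired analysis was possible because no embryo is named and no result comes from a test. Depth limits the members with few counts, and reads shared by copies limit every gene with close pseudogenes.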
